A study of Homo sapiens with 6 samples.

Results

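The 8 genes described here encode the core of the PI3K, AKT and mTOR kinase pathway, and they were taken by name from the 60658 genes measured: the catalytic subunits PIK3CA and PIK3CB, the regulatory subunit PIK3R1, the kinases AKT1 and AKT2, and MTOR with its partners RPTOR and RICTOR. All 8 had a value in every library. The values are RNA levels in 2 human prostate cancer cell lines resistant to the androgen receptor antagonist enzalutamide. The medium of C4-2B MDVR cells, a resistant derivative of C4-2B, held 20 µM enzalutamide, and that of CWR22Rv1 cells none. Each line received DMSO (vehicle), apoptozole (APO) or VER155008 (VER) for 48 h, the latter both HSP70 chaperone inhibitors given at 10 µM, and gave 1 library per condition. The libraries carry no replicate, so no difference below has an error or a p-value. The methods of the study do not say whether enzalutamide was also present during the 48 h. Because C4-2B MDVR alone was maintained with enzalutamide, the line and exposure to that drug cannot be told apart.

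Class I PI3K is a lipid kinase built from a catalytic and a regulatory subunit. It is activated at growth factor receptors and makes the membrane lipid that recruits AKT. mTOR works in a pair of complexes. Raptor (RPTOR) defines mTORC1, which drives protein synthesis when growth factors and amino acids are present, and rictor (RICTOR) defines mTORC2, which phosphorylates AKT. The pathway is often active in prostate cancer, where it supports growth and survival.

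The labels and the study differ on the origin of 3 libraries: the titles name C4-2B MDVR, whereas the source field names LNCaP-C4-2B and a parental cell type. The titles were followed. All 9 markers of prostate luminal epithelium stood above 1 FPKM (read fragments scaled by transcript length and by library size, so that genes can be compared) in all 6 libraries, and the 3 basal markers lay below 1 in all 6. Summed fibroblast markers ranged from 16.6 to 65.0 FPKM, carried by VIM and COL1A1. Summed leukocyte markers ranged from 0.307 to 3.78 FPKM. The deposited values hold no read totals; ratios of low values put the depth of the other libraries at 1.15 to 1.67 times that of C4-2B MDVR with DMSO, the deepest being C4-2B MDVR with APO. Mitochondrial genes held 10.4% of all FPKM in CWR22Rv1 with APO against 25.7% in the other 2 libraries of that line, and 14.8% to 16.4% in C4-2B MDVR. Libraries were therefore also rescaled without these genes. In bulk RNA, fewer cells with a transcript and less of it per cell cannot be told apart.

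All 8 genes are protein coding. On GRCh38 (GENCODE 29), PIK3CA (ENSG00000121879) lies on chromosome 3 from 179148114 to 179240093, plus strand. PIK3CB (ENSG00000051382) lies on chromosome 3 from 138652699 to 138834938, minus strand. PIK3R1 (ENSG00000145675) is on chromosome 5 from 68215720 to 68301821, plus strand. AKT1 (ENSG00000142208) is on chromosome 14 from 104769349 to 104795751 and AKT2 (ENSG00000105221) on chromosome 19 from 40230317 to 40285536, both on the minus strand. MTOR (ENSG00000198793) occupies chromosome 1 from 11106535 to 11262507, minus strand. RPTOR (ENSG00000141564) occupies chromosome 17 from 80544819 to 80966371, plus strand, and RICTOR (ENSG00000164327) chromosome 5 from 38937919 to 39074408, minus strand. For PIK3CA the values are less certain than for the others. The gene KCNMB3, on the opposite strand, shares 3403 of the 9494 exonic bases of PIK3CA, the strand setting of the counting is not given in the sources used here, and a near-identical partial copy of PIK3CA exists elsewhere in the genome. OSMR shares 229 of the 13550 exonic bases of RICTOR.

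The promoters of 4 members are shown because their RNA parted in these cells: AKT1 against its paralog AKT2, and PIK3CA and PIK3R1, which were both higher with APO and not with VER in CWR22Rv1. Each is 300 bases, from 250 before to 50 after the first RefSeq start (GRCh38.p14), written 5′ to 3′ along the gene. Capitals mark GC boxes, GGGCGG on either strand, which 45.0% of 35116 promoters of this length hold. The windows are chr14:104795699-104795998 (minus strand), chr19:40285296-40285595 (minus strand), chr3:179148107-179148406 (plus strand) and chr5:68215506-68215805 (plus strand).
AKT1: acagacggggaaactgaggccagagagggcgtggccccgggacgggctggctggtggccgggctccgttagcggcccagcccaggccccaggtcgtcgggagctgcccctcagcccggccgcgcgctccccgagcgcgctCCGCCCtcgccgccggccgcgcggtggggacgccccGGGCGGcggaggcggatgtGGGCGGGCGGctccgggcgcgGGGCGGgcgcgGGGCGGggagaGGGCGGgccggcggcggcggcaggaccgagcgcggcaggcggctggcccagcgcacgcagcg
AKT2: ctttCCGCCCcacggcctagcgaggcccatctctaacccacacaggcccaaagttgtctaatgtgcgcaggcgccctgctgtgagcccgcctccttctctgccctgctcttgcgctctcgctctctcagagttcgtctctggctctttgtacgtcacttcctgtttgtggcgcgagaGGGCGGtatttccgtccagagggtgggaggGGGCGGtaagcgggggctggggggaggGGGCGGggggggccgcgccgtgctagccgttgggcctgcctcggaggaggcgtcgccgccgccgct
PIK3CA: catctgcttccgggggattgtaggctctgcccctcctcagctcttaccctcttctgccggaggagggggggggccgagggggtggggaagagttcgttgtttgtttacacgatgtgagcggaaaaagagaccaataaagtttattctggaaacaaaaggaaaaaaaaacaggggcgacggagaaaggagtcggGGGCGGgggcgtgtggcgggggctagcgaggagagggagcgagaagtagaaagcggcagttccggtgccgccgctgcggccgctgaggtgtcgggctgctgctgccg
PIK3R1: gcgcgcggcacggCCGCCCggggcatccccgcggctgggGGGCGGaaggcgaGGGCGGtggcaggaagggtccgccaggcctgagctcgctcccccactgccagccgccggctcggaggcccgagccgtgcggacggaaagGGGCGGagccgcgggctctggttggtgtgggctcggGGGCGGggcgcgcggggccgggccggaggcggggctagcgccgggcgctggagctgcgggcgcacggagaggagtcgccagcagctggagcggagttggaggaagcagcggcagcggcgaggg

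The AKT1 window held 7 GC boxes and 83.3% G and C, and that of AKT2 held 4 and 68.0%. PIK3R1 had 5 GC boxes and 80.0% G and C, while PIK3CA had 1 GC box, 60.7% G and C and 1 CCAAT box. The median over all promoters was 58.7% G and C. The CCAAT box, searched as CCAAT on both strands, was found in 34.6% of all promoters. None of the 4 windows held AGAACA (an androgen receptor half-site, in 14.8% of promoters), TGATGNAA (a C/EBP-ATF element core, in 3.6%) or CACGTG (an E-box, in 7.3%) on either strand. RefSeq lists 4 starts for PIK3R1, 2 for each AKT gene and 1 for PIK3CA, and the FPKM values do not separate them.

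Levels of the 8 genes spanned a wide range that was similar in both lines. AKT1 was the most abundant in all 6 libraries, and PIK3CA or RICTOR the least abundant in all 6. In C4-2B MDVR with DMSO the order by FPKM was AKT1 (99.8), PIK3CB (45.4), AKT2 (36.7), RPTOR (15.2), MTOR (12.3), PIK3R1 (12.0), RICTOR (2.88) and PIK3CA (2.55). In CWR22Rv1 with DMSO it was AKT1 (99.4), AKT2 (51.3), PIK3CB (21.5), MTOR (12.5), RPTOR (8.20), PIK3R1 (5.52), RICTOR (4.63) and PIK3CA (3.37). Neighbours such as MTOR and PIK3R1 in the first line, or RICTOR and PIK3R1 in the second, were within 1.2-fold of each other. With 1 library each, the order of such neighbours has no spread to set it against.

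**Figure D1:**
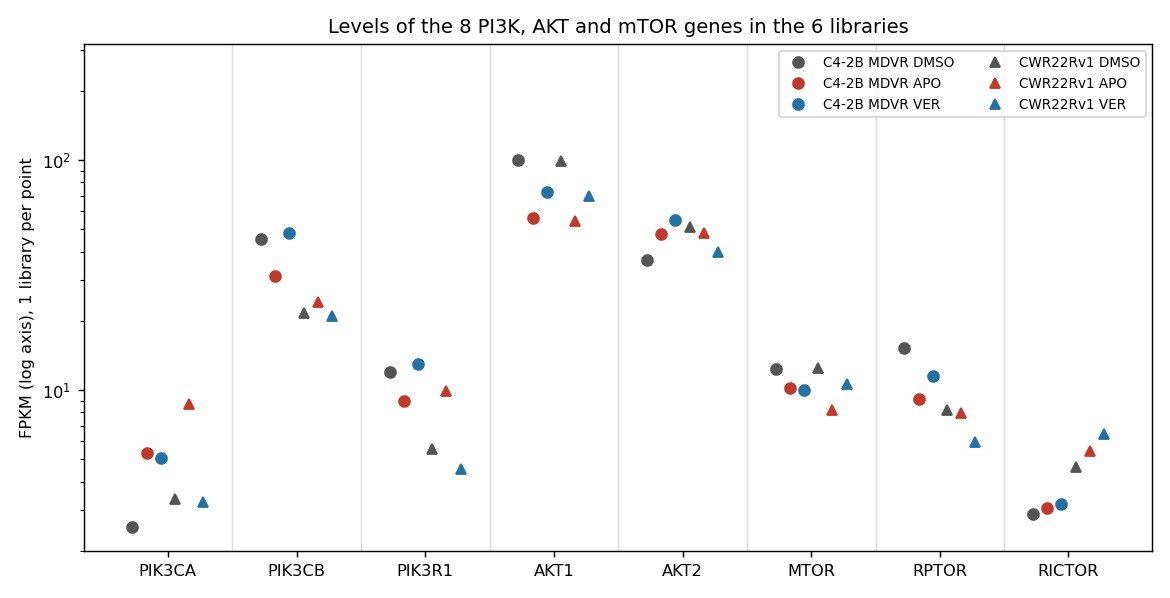
Level of each of the 8 genes in FPKM (vertical log axis) with 1 point per library, circles for C4-2B MDVR and triangles for CWR22Rv1, coloured by treatment. AKT1 lies highest, and its points are lower with APO (55.9 and 54.3 FPKM) than with DMSO (99.8 and 99.4 FPKM) in both lines.

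AKT1 was lower with both inhibitors in both lines. AKT1 encodes the most widely expressed AKT kinase, which promotes growth and survival. Its level was 99.8 FPKM under DMSO, 55.9 under APO and 72.9 under VER in C4-2B MDVR cells. It was 99.4, 54.3 and 69.9 FPKM in CWR22Rv1 cells. Levels in the same treatment thus lay close together in the 2 lines, and the DMSO libraries were the highest of each line. As differences of log2(FPKM + 0.1), the scale used throughout, this came to -0.83 (APO) and -0.45 (VER) for C4-2B MDVR. In CWR22Rv1 it came to -0.87 and -0.51. Of all genes compared, 16.6% and 27.3% had a lower difference than AKT1 for APO and VER in C4-2B MDVR, and 19.6% and 20.2% in CWR22Rv1. The study presents AKT1 as a gene altered in C4-2B MDVR cells, so its direction there was known when it was chosen and is no independent evidence. Both differences of a line also share 1 DMSO library.

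AKT2, the isoform tied to insulin signalling, did not follow AKT1. It measured 36.7 FPKM under DMSO, 47.9 under APO and 55.0 under VER in C4-2B MDVR cells, differences of 0.39 and 0.58. In CWR22Rv1 cells it measured 51.3, 48.1 and 40.04 FPKM, differences of -0.09 and -0.36. DMSO was thus the lowest library for AKT2 in C4-2B MDVR and, on the deposited scale, the highest in CWR22Rv1, where the difference with APO was 0.02 on the same sum. The difference with APO in C4-2B MDVR came to 0.24 once all libraries were scaled to the same sum, under the 0.26 that corresponds to 1.2-fold.

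The ratio of AKT1 to AKT2 within a library does not depend on how libraries were scaled. It was 2.72 under DMSO, 1.17 under APO and 1.32 under VER in C4-2B MDVR cells. In CWR22Rv1 it was 1.94, 1.13 and 1.75. AKT1 accordingly held 73.1% of summed AKT FPKM in C4-2B MDVR under DMSO, 53.8% under APO and 57.0% under VER. In CWR22Rv1 the shares of AKT1 were 65.9%, 53.0% and 63.5%. The AKT pool was thus closest to even with APO in both lines.

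PIK3CA, the catalytic subunit most often mutated in cancer, had the largest difference of the members with either inhibitor in C4-2B MDVR and with APO in CWR22Rv1. Its level was 2.55 FPKM under DMSO, 5.35 under APO and 5.09 under VER in C4-2B MDVR, differences of 1.04 and 0.97. In CWR22Rv1 it was 3.37 FPKM under DMSO, 8.74 under APO and 3.25 under VER, differences of 1.35 and -0.05. Libraries with an inhibitor were therefore high in 3 of 4 cases, and VER in CWR22Rv1 stayed at the DMSO level. Of all genes compared in CWR22Rv1, 91.5% had a lower difference than PIK3CA for APO and 46.2% for VER. In C4-2B MDVR the shares were 85.5% and 85.1%. The level of the overlapping KCNMB3 also differed, from 0.532 FPKM under DMSO to 2.14 under APO and 0.991 under VER in C4-2B MDVR. In CWR22Rv1 KCNMB3 had 0.491, 2.34 and 1.04 FPKM, and its part in the values of PIK3CA was not tested.

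PIK3CB encodes the beta catalytic subunit of class I PI3K. It measured 45.4 FPKM under DMSO, 31.3 under APO and 48.3 under VER in C4-2B MDVR cells, differences of -0.54 and 0.09. In CWR22Rv1 cells it measured 21.5, 24.1 and 21.1 FPKM, differences of 0.16 and -0.03. Between the lines with DMSO it differed by -1.07, as CWR22Rv1 minus C4-2B MDVR, where 46.6% of all genes were past 2-fold. Only APO in C4-2B MDVR took PIK3CB past 1.2-fold on the deposited scale.

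Within the class I catalytic subunits, PIK3CB held the largest share everywhere. PIK3CA took 3.64% of their summed FPKM under DMSO, 11.3% under APO and 7.65% under VER in C4-2B MDVR. In CWR22Rv1 it took 13.5%, 26.5% and 13.3%. PIK3CB ranged from 64.9% to 72.6% in C4-2B MDVR and from 73.3% to 86.3% in CWR22Rv1. The lines differed in the rest of the pool. PIK3CD, the delta subunit best known from leukocytes, held 31.5%, 22.6% and 19.7% in C4-2B MDVR and at most 0.439% in CWR22Rv1. Summed leukocyte markers were likewise higher in C4-2B MDVR, at 2.27, 3.78 and 2.04 FPKM with DMSO, APO and VER against 0.623, 1.002 and 0.307 in CWR22Rv1. CD68 made up most of these sums, at 1.98 to 3.68 and 0.307 to 0.970 FPKM. CD3E measured 0.0524 to 0.101 FPKM in C4-2B MDVR and was listed at 0 in CWR22Rv1, and PTPRC was listed at 0 in 5 libraries and stood at 0.0323 FPKM in CWR22Rv1 with APO. The part of leukocyte markers in the PIK3CD values was not tested. Summed catalytic subunits came to 69.9, 47.3 and 66.5 FPKM in C4-2B MDVR with DMSO, APO and VER. They came to 25.0, 32.9 and 24.4 FPKM in CWR22Rv1, where the APO library was the highest and not, as in C4-2B MDVR, the lowest.

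PIK3R1 encodes the main regulatory subunit, which stabilizes the catalytic subunits and holds them inactive until a receptor is engaged. Its level in C4-2B MDVR was 12.0 FPKM under DMSO, 8.95 under APO and 13.0 under VER, differences of -0.42 and 0.11. In CWR22Rv1 it was 5.52, 9.93 and 4.52 FPKM, differences of 0.83 and -0.28. With APO the gene was thus lowest of the 3 libraries in one line and highest in the other, past 1.2-fold both times. The difference with VER in CWR22Rv1 was close to the threshold and came to -0.24 with a pseudocount of 1.

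The regulatory pool was led by PIK3R2 or PIK3R3, which encode relatives of the PIK3R1 product and are shown here as its family, with values already seen. PIK3R1 made up 19.7% of the summed FPKM of the 3 genes under DMSO, 11.6% under APO and 16.5% under VER in C4-2B MDVR. It made up 13.7%, 25.7% and 16.7% in CWR22Rv1. PIK3R3 reached 50.02% with APO in C4-2B MDVR, against 31.1% with DMSO, and stayed between 22.1% and 27.0% in CWR22Rv1. The summed level was 60.8, 77.1 and 79.0 FPKM with DMSO, APO and VER in C4-2B MDVR and 40.4, 38.7 and 27.1 FPKM in CWR22Rv1.

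**Figure D2:**
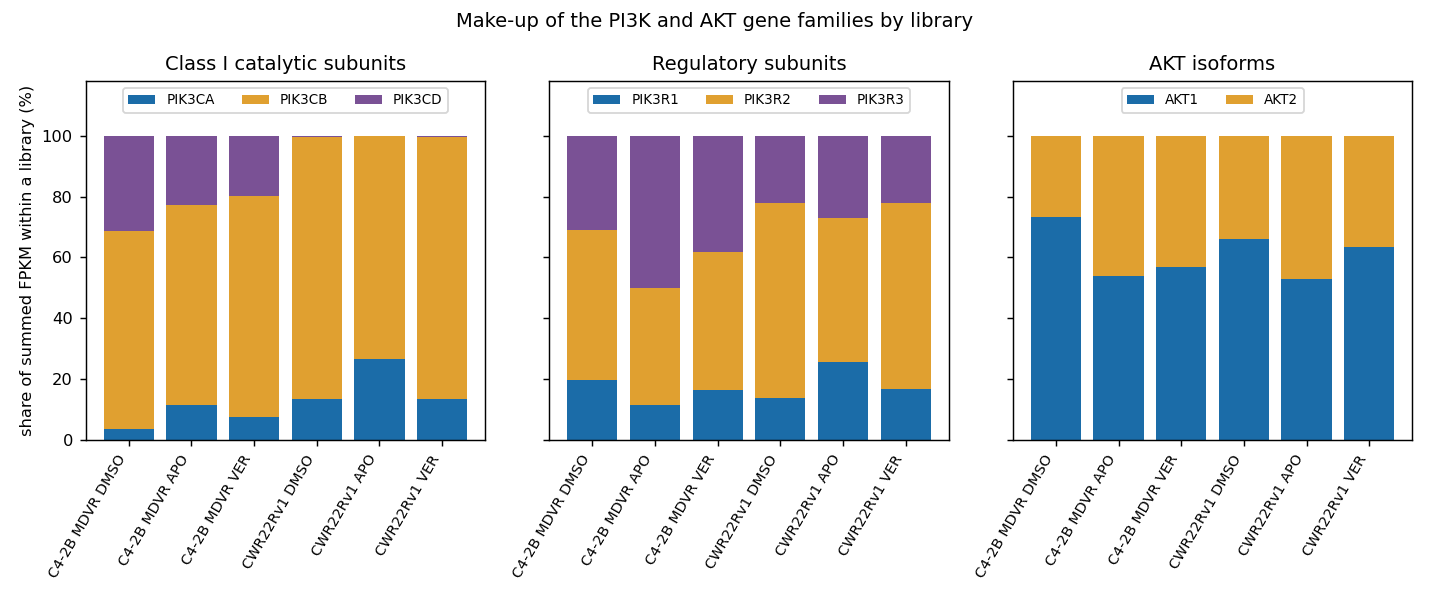
Share of the summed FPKM within a library (%) held by each class I catalytic subunit (left), regulatory subunit (middle) and AKT isoform (right), for the 6 libraries; PIK3CG is too low to be seen. PIK3CD fills 19.7% to 31.5% of the catalytic bars in C4-2B MDVR only, and AKT1 is at 53.8% and 53.0% of AKT with APO.

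MTOR, the kinase shared by both complexes, was lower in all 4 treated libraries, with small differences. It measured 12.3 FPKM under DMSO, 10.2 under APO and 10.1 under VER in C4-2B MDVR, differences of -0.26 and -0.29. In CWR22Rv1 it measured 12.5, 8.17 and 10.6 FPKM, differences of -0.60 and -0.23. The DMSO library was the highest of its line in both. The largest of these differences, with APO in CWR22Rv1, exceeded 1.5-fold on the deposited scale but not on the same sum. The difference with APO in C4-2B MDVR was at the 1.2-fold threshold on the deposited scale. That with VER in CWR22Rv1 was short of the threshold on that scale and past it on the same sum.

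RPTOR, the scaffold that brings substrates to mTORC1, was also below DMSO in each treated library on the deposited scale, though with APO in CWR22Rv1 its difference turned to 0.07 on the same sum. Its levels in C4-2B MDVR were 15.2 FPKM under DMSO, 9.19 under APO and 11.5 under VER, differences of -0.72 and -0.40. In CWR22Rv1 they were 8.20, 7.94 and 5.94 FPKM, differences of -0.05 and -0.46. APO thus gave the lower value in C4-2B MDVR and VER in CWR22Rv1, and the difference with APO in CWR22Rv1 stayed within 1.2-fold.

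RICTOR, the subunit that defines mTORC2, was above DMSO in each treated library on the deposited scale, though with APO in C4-2B MDVR its difference turned to -0.06 on the same sum and -0.07 without mitochondrial genes. It had 2.88 FPKM under DMSO, 3.07 under APO and 3.20 under VER in C4-2B MDVR, differences of 0.09 and 0.15. In CWR22Rv1 it had 4.63, 5.43 and 6.45 FPKM, differences of 0.23 and 0.47. Between the lines with DMSO it differed by 0.67, where 82.4% of all genes were past 1.2-fold. Of the inhibitor comparisons, VER in CWR22Rv1 was the single case past 1.2-fold on the deposited scale. APO in that line joined it on the same sum, at 0.34. OSMR, which overlaps RICTOR, measured 0.608 to 1.66 FPKM in C4-2B MDVR and 1.98 to 2.44 in CWR22Rv1.

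The ratio of RPTOR to RICTOR, again free of scaling, combined both directions. It was 5.28 under DMSO, 2.995 under APO and 3.60 under VER in C4-2B MDVR cells. It was 1.77, 1.46 and 0.921 in CWR22Rv1, where with VER RICTOR exceeded RPTOR. The ratio of MTOR to RICTOR was 4.28, 3.34 and 3.14 in C4-2B MDVR and 2.69, 1.505 and 1.64 in CWR22Rv1. DMSO gave the highest ratio of its line in each of these series.

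Counted together, 7 of the 8 genes differed by more than 1.2-fold with APO in C4-2B MDVR, 2 higher and 5 lower. Of the 20122 genes compared there 73.1% did, 37.7% higher and 35.4% lower. With VER 5 did in that line, 2 higher and 3 lower, against 70.5% of genes, 35.6% higher and 34.9% lower. In CWR22Rv1 with APO 4 did, 2 in each direction, against 74.8% of 21608 genes, 35.6% higher and 39.2% lower. In CWR22Rv1 with VER 5 did, 1 higher and 4 lower, against 64.4% of genes, 32.1% higher and 32.3% lower. On 8 genes, the counts of 7, 5, 4 and 5 are read beside these shares, and they lie within 2 genes of what the shares would give. Among genes within the range of the members' mean FPKM, 4.28 to 75.4, the shares were 66.9%, 64.8%, 70.8% and 54.6%. Past 2-fold stood PIK3CA alone, with APO in either line, whereas 28.7% of all genes did so with APO in C4-2B MDVR and 30.6% in CWR22Rv1. With VER no member did, against 27.8% and 19.8% of genes. The median difference over the 8 genes was -0.34 under APO and 0.10 under VER in C4-2B MDVR, and 0.06 and -0.26 in CWR22Rv1. The medians over all genes were 0.00, 0.00, -0.01 and 0.00. Scaled to the same sum, the split with APO became 1 higher and 5 lower in C4-2B MDVR and 4 higher and 2 lower in CWR22Rv1. With VER in CWR22Rv1 it became 1 higher and 5 lower. The split of all genes moved as well. On that scale 6367 were higher and 8491 lower with APO in C4-2B MDVR. In CWR22Rv1 8719 were higher and 7611 lower with APO, and 6269 and 7739 with VER.

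**Figure D3:**
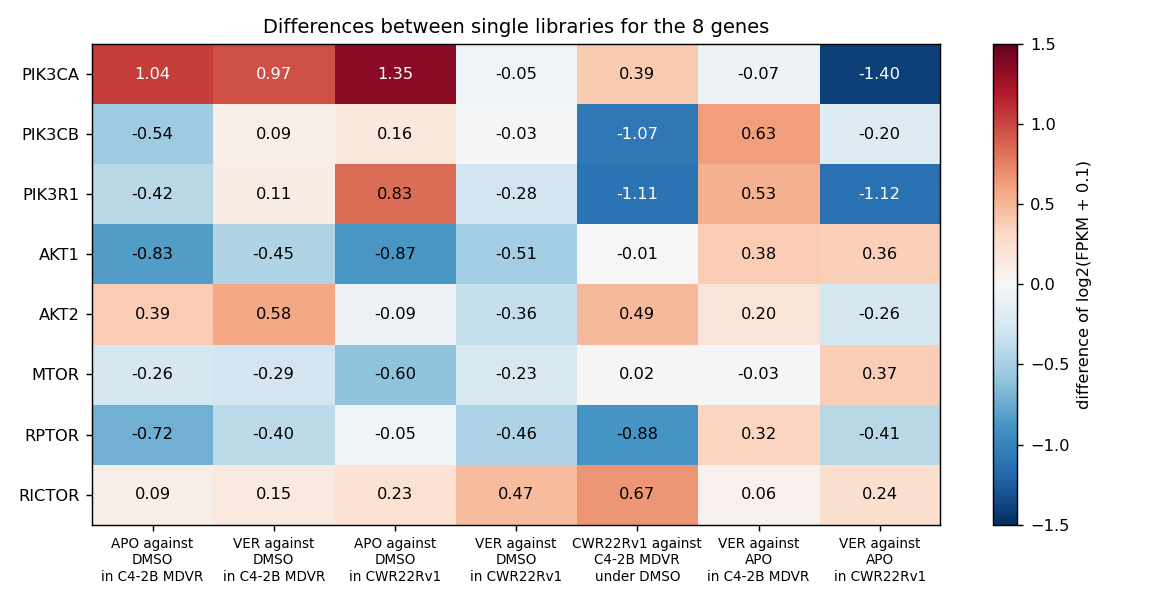
Difference of log2(FPKM + 0.1) between 2 single libraries (colour and printed value) for the 8 genes (rows) and 7 comparisons (columns). AKT1 is negative in the 4 columns against DMSO (-0.83, -0.45, -0.87 and -0.51), PIK3CA is 0.97 or more in 3 of them, and PIK3CB and PIK3R1 are the lowest in the column of the lines, at -1.07 and -1.11.

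Between the lines with DMSO, PIK3R1, PIK3CB and RPTOR were lower in CWR22Rv1, RICTOR, AKT2 and PIK3CA were higher, and AKT1 and MTOR were level. PIK3R1 was at 5.52 FPKM in CWR22Rv1 against 12.0 in C4-2B MDVR, a difference of -1.11. PIK3CB was at 21.5 against 45.4 FPKM, a difference of -1.07. RPTOR was lower as well, at 8.20 against 15.2 FPKM, a difference of -0.88. These 3 lay in the lower part of all genes, with 17.4%, 18.0% and 21.7% of 20903 genes below them. RICTOR was higher in CWR22Rv1, at 4.63 against 2.88 FPKM, a difference of 0.67. AKT2 differed by 0.49 and PIK3CA by 0.39, both higher in CWR22Rv1. AKT1 and MTOR differed by -0.01 and 0.02. In all, 6 of the 8 genes were past 1.2-fold, 3 in each direction. Of all genes 82.4% were, 43.2% higher and 39.2% lower, and of those in the members' range of FPKM 75.1% were. PIK3R1 and PIK3CB were past 2-fold, as were 46.6% of all genes.

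**Figure D4:**
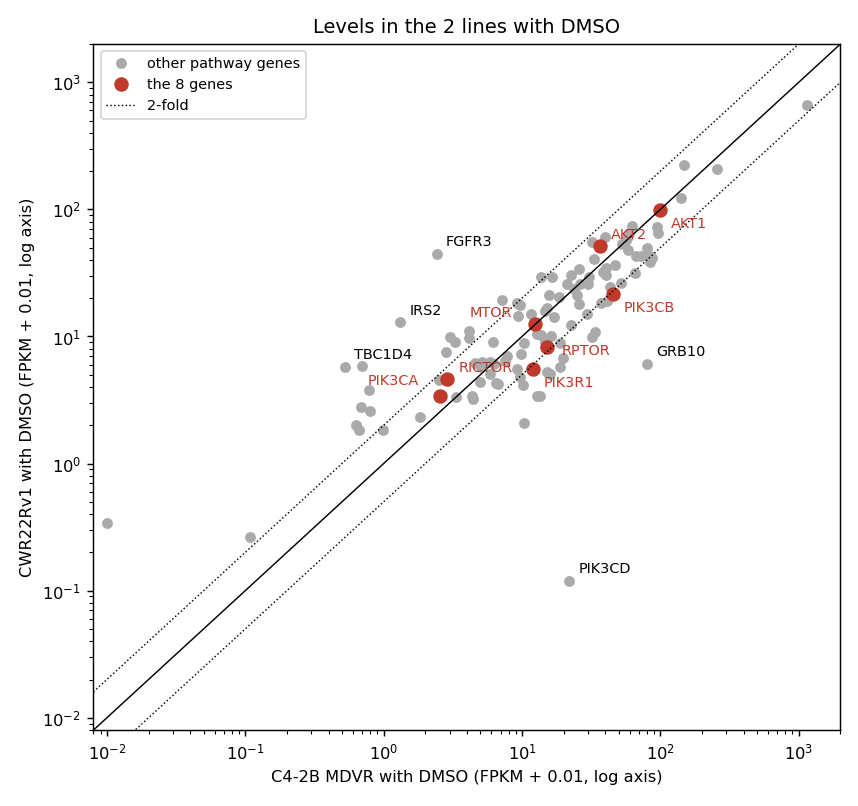
Level with DMSO in CWR22Rv1 (vertical) against C4-2B MDVR (horizontal), in FPKM + 0.01 on log axes, for the 8 genes (red) and the other pathway genes (grey); the solid line marks equal levels and the dotted lines 2-fold. AKT1 and MTOR lie on the line of equality, PIK3CB (45.4 against 21.5 FPKM) and PIK3R1 (12.0 against 5.52 FPKM) just past 2-fold, and PIK3CD (22.01 against 0.1098 FPKM) farthest from it.

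The inhibitors were also compared with each other at their common dose of 10 µM and 48 h, as a description of single libraries. In C4-2B MDVR, VER gave higher levels than APO by more than 1.2-fold for 4 members and lower levels for 0, where 61.0% of genes passed, 28.5% higher and 32.5% lower. These were PIK3CB, with a difference of 0.63, PIK3R1 with 0.53, AKT1 with 0.38 and RPTOR with 0.32. Among genes in the members' range of FPKM the share was 49.3%. In CWR22Rv1 6 members passed, 2 higher and 4 lower with VER, against 71.8% of all genes, 37.3% higher and 34.5% lower, and 66.0% in the range. Past 2-fold were 2 members in CWR22Rv1 and 0 in C4-2B MDVR, against 26.2% and 19.1% of genes. PIK3CA was lower with VER than with APO by 1.40 and PIK3R1 by 1.12, and 5.78% and 8.83% of all genes lay below them. RPTOR was lower by 0.41 and AKT2 by 0.26. MTOR was higher by 0.37 and AKT1 by 0.36, and both came under 1.2-fold, at 0.19 and 0.18, when libraries were scaled to the same sum. On that scale 5 members were lower with VER in CWR22Rv1 and 0 higher, while of 21629 genes compared 9319 were lower and 6680 higher. On the deposited scale AKT1 was the only member past 1.2-fold in the same direction in both lines, higher with VER than with APO.

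Other genes of the pathway were described through 13 lists of 113 genes, of which 108 were compared in C4-2B MDVR and 110 in CWR22Rv1. With APO in C4-2B MDVR 41 were higher and 28 lower past 1.2-fold, with a median of 0.06, and with VER 45 and 35, with a median of 0.16. In CWR22Rv1 48 were higher and 37 lower with APO, with a median of 0.16, and 31 and 31 with VER, with a median of -0.07. Scaled to the same sum, with or without mitochondrial genes, the split with APO in C4-2B MDVR turned to 35 higher and 38 lower, and that with VER in CWR22Rv1 to 27 and 38. With APO in CWR22Rv1 it was 55 and 28 on the same sum, but 39 and 43 without mitochondrial genes. Background shares on the deposited scale are those given for the members, and no test set the lists against them. On the same sum, 6367 genes were higher and 8491 lower with APO in C4-2B MDVR. In CWR22Rv1 on that scale 8719 were higher and 7611 lower with APO, and 6269 and 7739 with VER. Without mitochondrial genes, 6267 were higher and 8592 lower with APO in C4-2B MDVR. In CWR22Rv1 these were 6465 and 9723 with APO, and 6294 and 7781 with VER.

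**Figure D5:**
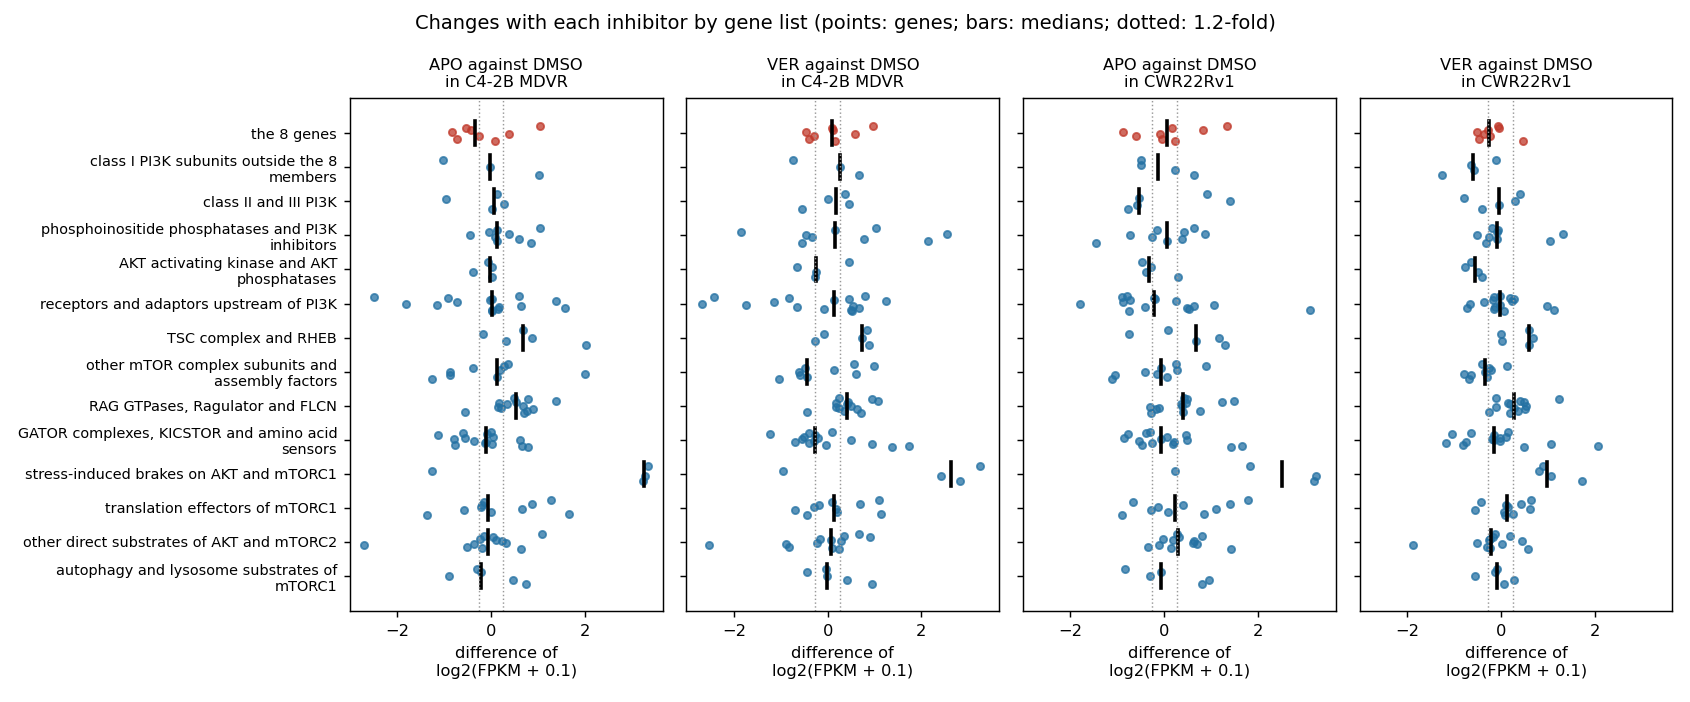
Difference of log2(FPKM + 0.1) against DMSO (horizontal axis) of each gene (points) by list (rows) in the 4 comparisons (panels), with bars for medians and dotted lines at 1.2-fold. The 8 genes (red) lie within 1.35 of 0, while 3 of the 4 stress-induced brakes reach 3.24 to 3.36 with APO in C4-2B MDVR.

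Of the 4 stress-induced brakes on AKT and mTORC1, DDIT4, TRIB3 and SESN2 were higher in all 4 comparisons with DMSO, by more than any of the 8 members differed in the same comparison. DDIT4 (REDD1), which restrains mTORC1 through the TSC complex, measured 79.5 FPKM under DMSO, 816.9 under APO and 753.8 under VER in C4-2B MDVR, and 49.4, 177.3 and 92.0 FPKM in CWR22Rv1. Its differences were 3.36 and 3.24 in the first line and 1.84 and 0.90 in the second. TRIB3, a pseudokinase that binds AKT, measured 33.3, 324.1 and 179.8 FPKM in C4-2B MDVR and 40.9, 386.9 and 85.7 FPKM in CWR22Rv1. SESN2, a leucine sensor and stress-induced inhibitor of mTORC1, had differences of 3.24 and 2.82 in C4-2B MDVR and 3.19 and 1.74 in CWR22Rv1. DDIT4L, the paralog of DDIT4, was lower in C4-2B MDVR, at -1.26 and -0.95, and in CWR22Rv1 had 0.23 and 0.81. Set against the kinase, DDIT4 was at 0.797 times the FPKM of AKT1 with DMSO, 14.6 times with APO and 10.3 times with VER in C4-2B MDVR. In CWR22Rv1 it was at 0.497, 3.26 and 1.32 times.

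RAG GTPases, Ragulator and folliculin tether and activate mTORC1 at the lysosome. Of their 13 genes, 9 were higher and 1 lower with APO and 8 and 1 with VER in C4-2B MDVR, with medians of 0.53 and 0.41. In CWR22Rv1 9 were higher and 2 lower with APO and 7 and 0 with VER, with medians of 0.41 and 0.27. Without mitochondrial genes in the sum, 6 were higher and 3 lower with APO and 6 and 1 with VER in CWR22Rv1. Of all genes on the deposited scale, 37.7% and 35.6% were higher in C4-2B MDVR under APO and under VER, and 35.6% and 32.1% in CWR22Rv1. Without mitochondrial genes in the sum, 6465 of 21623 genes were higher and 9723 lower with APO in CWR22Rv1, and 6294 and 7781 with VER. The medians of the 13 genes lay between 0.21 and 0.53 under the other scalings of the libraries. In the TSC and RHEB list, TBC1D7, a TSC complex subunit, had differences of 0.87 and 0.74 in C4-2B MDVR and 1.16 and 0.68 in CWR22Rv1. RHEBL1, a relative of the mTORC1 activator RHEB, had 2.03, 0.89, 1.29 and 0.61 in that order, from a low 0.619 FPKM with DMSO in C4-2B MDVR. RHEB itself, named after its values were seen, was far more abundant and not higher in all 4. With DMSO, APO and VER it measured 62.1, 78.1 and 51.8 FPKM in C4-2B MDVR and 73.7, 118.7 and 75.2 FPKM in CWR22Rv1. TSC2 itself was within 1.2-fold except with APO in CWR22Rv1, at -0.76. Of the 15 GATOR, KICSTOR and amino acid sensor genes, 6 were lower and 3 higher with APO and 8 and 4 with VER in C4-2B MDVR. In CWR22Rv1 7 were lower and 4 higher with APO and 5 and 3 with VER. SESN1, another sestrin, was higher in all 4, with differences of 0.66, 1.74, 1.67 and 2.08.

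Among the other mTOR complex and assembly genes, 4 of 9 were lower and 3 higher with APO and 5 and 3 with VER in C4-2B MDVR, and 3 and 2 with APO and 6 and 0 with VER in CWR22Rv1. TELO2 and TTI1, which help assemble MTOR and related kinases, were lower in all 4 comparisons. The differences of TELO2 were -1.25 and -1.04 in C4-2B MDVR and -1.10 and -0.69 in CWR22Rv1. Those of TTI1 were -0.87, -0.59, -1.06 and -0.64. TTI2, another assembly gene of the list and named after its values were seen, was lower with VER only. With DMSO, APO and VER it measured 11.5, 12.6 and 8.50 FPKM in C4-2B MDVR and 15.1, 15.8 and 12.3 FPKM in CWR22Rv1. MLST8, a subunit of both complexes, was higher in C4-2B MDVR, at 0.37 and 0.56. In CWR22Rv1 it had 0.24 with APO and -0.41 with VER. Among translation effectors, EIF4EBP1, the inhibitor of cap-dependent translation that mTORC1 phosphorylates, had differences of 1.27, 1.09, 1.78 and 0.63, and EIF4EBP3 0.87, 0.69, 1.40 and 0.43. Their relative EIF4EBP2, named after its values were seen, did not follow. With DMSO, APO and VER it measured 30.4, 27.6 and 32.6 FPKM in C4-2B MDVR and 29.5, 18.6 and 21.9 FPKM in CWR22Rv1. Of the 10 genes of that list, 4 were higher and 2 lower with APO and 3 and 3 with VER in C4-2B MDVR, and 5 and 3 with APO and 4 and 2 with VER in CWR22Rv1.

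Upstream of AKT, of the 9 phosphatase and inhibitor genes, 4 were higher and 1 lower with APO and 4 and 4 with VER in C4-2B MDVR, and 4 and 3 with APO and 2 and 2 with VER in CWR22Rv1. Of the 15 receptors and adaptors, 4 were higher and 5 lower with APO and 7 and 6 with VER in C4-2B MDVR, and 5 and 7 with APO and 3 and 3 with VER in CWR22Rv1. FGFR3, a growth factor receptor, was lower in all 4, with differences of -1.81, -2.68, -1.80 and -0.66. IGF1R, the IGF-1 receptor, measured 5.06, 0.814 and 0.863 FPKM in C4-2B MDVR and 5.69, 2.98 and 5.17 FPKM in CWR22Rv1. SGK1, a kinase activated by mTORC2, measured 10.3, 1.48 and 1.70 FPKM in C4-2B MDVR and 2.08, 1.92 and 0.489 FPKM in CWR22Rv1. IGF1R and SGK1 were named after their values were seen.

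The remaining lists held genes of both directions. Of the 4 genes compared from the list of the AKT-activating kinase PDPK1 (named after its values were seen) and AKT phosphatases, 4 were lower with VER in CWR22Rv1 and 0 higher, 3 and 1 with APO there, 1 and 1 with VER in C4-2B MDVR and 1 and 0 with APO. The 12 other substrates of AKT and mTORC2 had 3 higher and 3 lower with APO and 4 and 3 with VER in C4-2B MDVR. In CWR22Rv1 they had 7 and 1 with APO and 2 and 3 with VER. The 5 autophagy and lysosome regulators had 2 and 2, 2 and 1, 2 and 2, and 1 and 1. Class II and III PI3K genes had 1 and 1, 2 and 1, 2 and 3, and 2 and 2 in the same order. Class I subunits outside the members had 1 higher and 1 lower with either inhibitor in C4-2B MDVR, 1 and 2 with APO in CWR22Rv1 and 0 and 3 with VER.

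Between the lines with DMSO, 37 of 108 pathway genes were higher and 46 lower in CWR22Rv1, with a median of -0.19 against 0.05 over all genes. By the same rule, 43.2% of all 20903 genes were higher and 39.2% lower. The split of the pathway genes was 39 and 40 at a median ratio of 1 between libraries (median -0.09). It was 34 and 52 on the same sum (-0.25), and 42 and 39 without mitochondrial genes (-0.06). The medians over all genes on these scales were 0.15, -0.009 and 0.18 in that order. The largest of these differences was that of PIK3CD, the relative of PIK3CA and PIK3CB, at 0.1098 FPKM in CWR22Rv1 and 22.01 in C4-2B MDVR, a difference of -6.72. The adaptor gene GRB10 measured 6.10 against 80.3 FPKM and IRS2 13.0 against 1.31 FPKM; both were named after their values were seen. Of 8 phosphatase and inhibitor genes, 7 were higher in CWR22Rv1 and 0 lower, with INPP4B, a lipid phosphatase, at 1.35. Differences above 1 were also held by FGFR3 (4.16), TBC1D4 (3.26), RRAGD (1.67), RHEBL1 (1.56) and DDIT4L (1.40). Below -1 stood CASTOR1 (-1.88), PIK3C2B (-1.64), PRR5 (-1.60), TFE3 (-1.51), PPP2R5C (-1.12) and EIF4EBP3 (-1.11). These lead their lists among genes averaging 1 FPKM or more, and line and enzalutamide cannot be told apart for any of them.

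The course of each member over the 6 libraries was finally compared with that of the 14241 genes averaging 1 FPKM or more, by the root mean square difference of log2(FPKM + 0.1) after centring each gene on its own mean. With 6 points and so many genes, close matches are to be had for most courses, and they are given as a description. Nearest to AKT1 were ZNF324B (0.04), WDCP (0.06) and LIMD1 (0.06). AKT2 lay nearest to AC137630.3 (0.09), KIAA1147 (0.10) and WRAP73 (0.10). Among the genes nearest to PIK3CB were ELL (0.09) and WDR89 (0.09). PIK3R1 lay nearest to KAT6B (0.08), IRAK1 (0.14) and TRIM8 (0.15). PIK3CA had the most distant neighbours, WDFY3-AS2 (0.16), AL355353.1 (0.17) and KCTD17 (0.18). MTOR lay nearest to AC016026.1 (0.06), MED25 (0.06) and ADGRA3 (0.07). RPTOR was followed by NF2 (0.08), RHOG (0.08) and WDR3 (0.09), and RICTOR by ZNF548 (0.04), TOMM20 (0.06) and DYNC1LI2 (0.07). Among the 8 members themselves the closest pairs were AKT1 with MTOR (0.19) and PIK3CB with RPTOR (0.21), followed by PIK3CB with PIK3R1 (0.28). The most distant pair was PIK3R1 with RICTOR (0.92).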

How the data were processed

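Total RNA was sequenced as paired-end polyadenylated libraries, 1 for each of 6 conditions. The labels describe a stranded kit and the study a different one. Per the labels, the authors used HISAT, Cufflinks and Cuffnorm with GRCh38 and deposited FPKM values per Ensembl gene, normalized between libraries; versions and the annotation release are not given in the sources used here, and the files hold no read totals. Symbols and coordinates came from GENCODE 29, which holds 57047 of the 60658 identifiers. Conditions were taken from the titles.

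A difference is that of log2(FPKM + 0.1) between 2 libraries, for genes above 0.1 FPKM in any of the 3 libraries of the line, or in either DMSO library. The pseudocount understates the differences of low genes. A gene was counted past 1.2-fold, the threshold of the study. FPKM values are not counts, whole reads were not recovered, and no test was made. Members and lists were chosen with earlier results of these data known. The genes named are the 8 members, per list those past 1.5-fold in 1 direction in all 4 inhibitor comparisons and the leading gene between the lines (each at a mean of at least 1 FPKM), DDIT4, TRIB3, SESN2, MLST8 and TSC2, and the 3 genes nearest in course to each member. Other genes are marked where named, and some genes that the rule names are left out. Alternatives were other pseudocounts, filters, scalings and thresholds. Functions were tested on simulated data. Python 3.11.15, pandas 2.3.3, numpy 2.4.6 and matplotlib 3.10.9 were used. RefSeq promoters are of GRCh38.p14.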

Additional observations from a re-analysis of the deposited data

Results flagged for a closer look

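With the same inhibitor, 2 members differed past 1.2-fold in opposite directions in the 2 lines, each from single libraries, and the difference between the lines was not tested. PIK3R1 with APO had -0.42 in C4-2B MDVR and 0.83 in CWR22Rv1, 1.25 apart. AKT2 with VER had 0.58 in C4-2B MDVR and -0.36 in CWR22Rv1, a gap of -0.943 as CWR22Rv1 minus C4-2B MDVR. Among the other pathway genes named, the same held with VER for DDIT4L (gap 1.76), MLST8 (gap -0.973), PDPK1 (gap -1.09, from 0.447 and -0.642) and PIK3R3 (gap -1.24, from 0.676 in C4-2B MDVR and -0.566 in CWR22Rv1).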

How the results depend on the processing

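The number of members past 1.2-fold was the same or within 1.5 times in 58 of 70 recalculations and moved only with the threshold. The changes of filter could not move it, because every member was above 1 FPKM in every library. At 1.5-fold it became 3 of 8 for APO and 1 for VER in C4-2B MDVR (7 and 5 at 1.2-fold), 0 for VER in CWR22Rv1 (5), and, for VER against APO, 1 in C4-2B MDVR (4) and 2 in CWR22Rv1 (6). At 2-fold it became 1 for APO and 0 for VER in C4-2B MDVR, 1 for APO (4 at 1.2-fold) and 0 for VER in CWR22Rv1, 2 between the lines (6), and, for VER against APO, 0 in the first line but 2 in the second. The median of the pathway genes passed 1.2-fold on scaling to the same sum of FPKM, at 0.275 with APO and -0.421 for VER against APO in CWR22Rv1; that scaling moved the median of all genes above 1 FPKM by 0.112 and -0.178 there. In C4-2B MDVR it moved it by -0.147 with APO and by 0.144 for VER against APO, and the sum without mitochondrial genes moved it by -0.160 and 0.173, by -0.151 with APO in CWR22Rv1 and by 0.128 between the lines, where a median ratio of 1 moved it by 0.104. No member or named gene past 1.2-fold changed direction under any alternative run. Of the member values recomputed, 488 kept their call, 63 lost it and 9 gained it. Of the losses, 22 came at 1.5-fold and 31 at 2-fold, where the threshold itself was raised. Each change of filter kept all 56 values, as it had to. Each condition has 1 library, so the groups share no pairs of replicates; a fit of treatment over both lines with the line as a block was not run. The deposited values give no counts, so counting precision was not computed.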
